A study of Mus musculus with 8 samples.

Results

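The Hox genes of the Hoxa, Hoxb, Hoxc and Hoxd clusters were described in adult leg muscle, through every non-control array probe whose gene name was Hox followed by a cluster letter and a paralog number. This rule found 50 probes of 41174 on the array, and they stood for 38 genes. The Hoxa cluster had 14 probes for 11 genes, Hoxb 15 for 10, Hoxc 9 for 8 and Hoxd 12 for 9. RNA of the tibialis anterior, a fast muscle at the front of the lower leg, was measured on 1 single-colour array per mouse. The comparison was between Prep1deltaSM mice (n = 4), whose skeletal muscle had lost Prep1, and Prep1f/+ mice (n = 4), with a floxed Prep1 allele. All 8 were male C57BL/6 mice at 8 weeks of age. The agent that drives recombination and the cells in which it acts are not given in the sources used here, and the whole muscle was sampled, so fewer cells of a type and less RNA per cell cannot be told apart in any value below.

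Hox genes encode homeodomain transcription factors that give cells of the embryo their position along the body axis and along the limb. Within a cluster they lie in the order in which they are switched on, so that low paralog numbers act towards the head and high numbers towards the tail and the tip of the limb. Many Hox proteins bind DNA together with PBX proteins, which they contact through a short tryptophan motif in front of the homeodomain. Prep1, the protein of the gene Pknox1, belongs with PBX and MEIS to the TALE class of homeodomain factors, binds PBX and holds it in the nucleus. Adult fibroblasts and other mesenchymal cells of the limb are known to keep a Hox pattern that reflects where they arose.

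A probe sees only the stretch of RNA it matches, and the stretches differ in how much one Hox gene resembles another. The probes were searched for a few short peptides of the homeodomain and for the proline, tryptophan and methionine core of the tryptophan motif. Of the 50 probes, 10 matched a homeodomain peptide, 2 matched the tryptophan core and 38 matched neither. A probe without a match could still cover another part of either motif. The homeodomain is the part that Hox genes share most, so probes that lie in it are those whose signal could in principle come from more than 1 Hox RNA; cross-hybridisation was not tested. Capitals mark codons of the conserved peptide that was searched for, a stretch of the homeodomain, and the Hoxb13 and Hoxd13 probes are shown for comparison with that of Hoxa13.
Hoxa13, probe A_52_P71789: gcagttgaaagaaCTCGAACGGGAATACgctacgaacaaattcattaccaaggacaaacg
Hoxb13, probe A_51_P290202: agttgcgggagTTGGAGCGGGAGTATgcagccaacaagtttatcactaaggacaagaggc
Hoxd13, probe A_51_P284571: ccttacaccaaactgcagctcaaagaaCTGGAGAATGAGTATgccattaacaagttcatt
Hoxd9, probe A_51_P430728: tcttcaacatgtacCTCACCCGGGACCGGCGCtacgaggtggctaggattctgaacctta
Among the homeodomain probes printed above, aligned without gaps, the Hoxa13 probe matched the Hoxd13 probe at 71.7% of 46 bases and the Hoxb13 probe at 69.0% of 58 bases, against a median of 41.9% over all 1225 pairs of Hox probes.

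The tryptophan motif is shown by the Hoxa6 probe, in which capitals mark the codons for proline, tryptophan and methionine at its core.
Hoxa6, probe A_51_P360586: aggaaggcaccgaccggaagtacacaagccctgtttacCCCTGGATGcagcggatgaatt
The probes of Hoxb6, Hoxd8, Hoxa10 and Hoxa3 printed next matched none of the peptides searched for, and their first 30 bases are given to identify them. The Hoxa13, Hoxd9 and Hoxa9 probes that were lower at an unadjusted p under 0.05 (limma) did cover homeodomain codons.
Hoxb6, probe A_51_P232207: tcgagtctcatttcgtccatgtcccccgtg
Hoxb6, probe A_52_P648750: ggtgctatttgacaattcctgcctctgcca
Hoxd8, probe A_52_P485542: tgcgctttgaaagggatttctgtgttttta
Hoxa10, probe A_51_P466285: gcaggtttgtttatacatgtggaactggtg
Hoxa3, probe A_52_P447935: agccctgtgcctcccggtgcaggaggctat
Coordinates of probes follow the files and mm9, and whether a probe lies in an exon, an intron or a UTR was not annotated here. The Hoxa probes lie on the minus strand of chromosome 6. From the first to the last probe, the Hoxb cluster ran over chr11:96057368-96228510, Hoxc over chr15:102758794-102866583 and Hoxd over chr2:74508005-74603059, these 3 on the plus strand.

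The scanner software called 23787 to 27123 of the 43379 non-control spots of an array well above background, and none was saturated. A mouse of each genotype shared each of the 4 slides. Principal components were taken over the probes well above background on 4 or more arrays that had no missing value. On the first of them, Prep1f/+ replicates 1 and 4 lay at -33.0 and -52.2, apart from the other 6 arrays at 5.46 to 26.2. As a check of the tissue, all 10 fast muscle genes, among them Acta1, Ckm and Myh4, were well above background on every array. So was Pitx1, the homeodomain gene that marks the hindlimb. The probes of Tbx4, which is also a hindlimb gene, and of the forelimb gene Tbx5 were on 0 of 8.

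The targeted gene was lower in the mice labelled as ablated. In what follows a level is the normalized log2 signal, the log2 intensity of a probe minus the log2 of the array's 75th percentile, and a difference is Prep1deltaSM minus Prep1f/+. The Pknox1 probe read -1.84, -2.08, -2.28 and -1.96 in Prep1deltaSM muscles, against -0.09, -0.31, -0.21 and -0.51 in Prep1f/+ muscles. Pknox1 fell by 1.76 ± 0.13 (SE), 3.39-fold, with an adjusted p of 0.0102 by limma, and by 0.89 with normexp background correction and quantile normalization (adjusted p of 0.00222). That call was lost without Prep1f/+ replicate 1, 2 or 3 (adjusted p of 0.0558, 0.0913 and 0.0889) or Prep1deltaSM replicate 2 (0.105), and with slide as a block (0.0947), while the difference without a single array stayed between -1.84 and -1.68. The position of the probe relative to the floxed exons is not given in the sources used here.

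Most Hox genes of the Hoxa and Hoxb clusters were detected in this adult muscle, and few of Hoxd. A probe was taken as detected when 4 or more of the 8 arrays had it well above background, a rule that ignores genotype. This held for 32 of the 50 Hox probes, or 64.0%, against 59.5% of all probes. The 32 probes stood for 26 of the 38 genes, and 29 of them were detected on all 8 arrays. All 11 Hoxa genes were detected, 8 of 10 Hoxb genes, 4 of 8 Hoxc genes and 3 of 9 Hoxd genes. The detected Hoxc genes were Hoxc4, Hoxc6, Hoxc9 and Hoxc10, and the detected Hoxd genes were Hoxd4, Hoxd8 and Hoxd9.

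By position within the clusters, detection was more frequent for paralog numbers 4 to 10 than for lower or higher numbers. Of the genes with paralog numbers 1 to 3, which pattern the hindbrain and neck, 5 of 8 were detected. Of those numbered 4 to 8, which act in the neck and thorax, 13 of 15 were. Of numbers 9 and 10, which act in the lumbar region and in the upper limb segment, 6 of 7 were detected. Of numbers 11 to 13, which pattern the lower limb segment, the foot and the tail, only Hoxa11 and Hoxa13 of 8 genes were, and Hoxa13 by 1 of its 2 probes. Neither gene numbered 12 was detected, and Hoxb13, Hoxc13 and both probes of Hoxd13 were on 0 of 8 arrays.

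**Figure D1:**
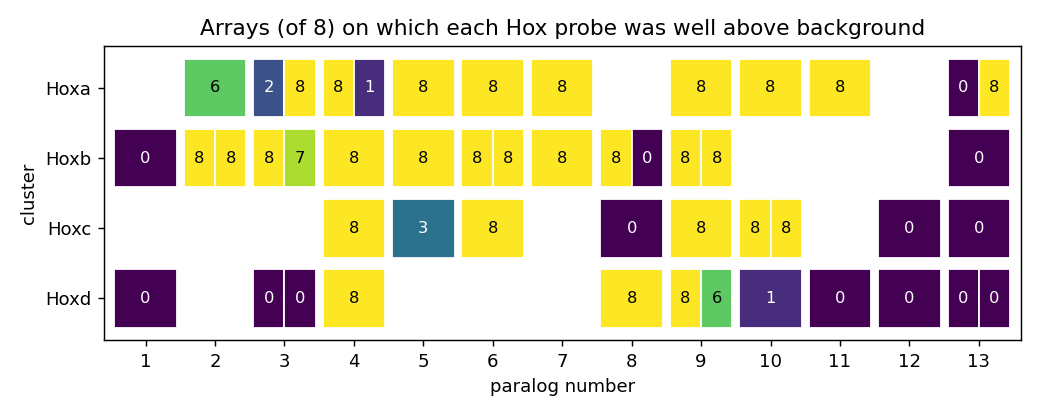
Number of arrays, of 8, on which each of 49 Hox probes was well above background, by cluster (vertical axis) and paralog number (horizontal axis); genes with 2 probes have a split tile, and the colour repeats the number. Every Hoxa gene shown has a probe on at least 4 arrays, while the Hoxd genes from 10 onwards have none.

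The 12 genes not detected were Hoxb1, Hoxb13, Hoxc5, Hoxc8, Hoxc12, Hoxc13, Hoxd1, Hoxd3, Hoxd10, Hoxd11, Hoxd12 and Hoxd13. Of the 18 probes under the rule, 14 were on 0 arrays, with signals between -7.48 and -4.47, so only an upper bound of their level is known. The other 4 lay just outside the rule: Hoxc5 on 3 arrays, 1 probe of Hoxa3 on 2, and 1 probe of Hoxa4 and the probe of Hoxd10 on 1. Just inside it were Hoxa2 and 1 probe of Hoxd9 on 6 arrays and 1 probe of Hoxb3 on 7. Hoxa2, the gene of the second pharyngeal arch, was on 3 arrays of each genotype, and Hoxc5 on 2 Prep1deltaSM arrays and 1 Prep1f/+ array. The number of Hox probes well above background per array was 33, 33, 34 and 30 in Prep1deltaSM muscles and 33, 32, 34 and 29 in Prep1f/+ muscles. The genotypes overlapped in it.

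Probes of one gene did not always share their detection. Of 12 genes with 2 probes, 6 had both detected, 4 had 1 detected and 2 (Hoxd3 and Hoxd13) had none. The Hoxb8 probes were on 8 and 0 arrays, those of Hoxa13 on 8 and 0, those of Hoxa4 on 8 and 1 and those of Hoxa3 on 8 and 2. The detected Hoxa13 probe is the homeodomain probe printed above, and the Hoxa13 probe on 0 arrays matched none of the peptides searched for. Of the 10 probes with a homeodomain match, 5 were detected, as were 26 of the 38 probes without a match. The accessions that the files give for the detected Hoxb3 homeodomain probe name Hoxd3 as well, and both probes named Hoxd3 were on 0 arrays. One detected Hoxb2 probe, A_51_P257789, lies on the strand opposite to the cluster, and what RNA it reads was not tested.

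No Hox probe passed the test between the genotypes, although the Hoxb6 probe A_51_P232207 stood apart. At an adjusted p of 0.05 by limma, 0 of the 32 detected Hox probes passed, against 0.00408% of all 24487 tested probes, which is Pknox1 alone. At an unadjusted p under 0.05, 1 Hox probe was higher in Prep1deltaSM muscle (3.12%, against 9.66% of all probes) and 6 were lower (18.8%, against 8.11%). With 1 probe per gene, the brightest, the 6 lower probes were among 26 genes, where 10.4% of all genes were lower. Groups without overlap were found for 1 probe that was higher, of Hoxb6, where 6.42% of all probes were of this kind, and for 1 that was lower, of Hoxa10, where 5.35% were.

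The count of 6 moved when single arrays were left out, as did the share of all probes that were lower. The count was 3 without Prep1f/+ replicate 1, without Prep1f/+ replicate 2 or without Prep1deltaSM replicate 3, where 7.01%, 6.44% and 6.73% of all probes were lower. Without Prep1f/+ replicate 4 it was 9, where 8.86% of all probes were lower. It was 3 without both Prep1f/+ arrays that stood apart on the first principal component, where 8.91% of all probes were lower. In the authors' deposited values it was 2, where 7.48% of all probes were lower. Only deposited values within 0.1 log2 of the scanner values after quantile normalization were used, so that fit is no independent check. Those values cover 20 of the 32 probes and leave out the lower probes of Hoxa3, Hoxa13 and Hoxd9. With quantile normalization of all 32 probes the count was 5, where 6.64% of all probes were lower. Over the 32 probes, 9 differences were above 0 and 23 below, with a median of -0.09, against -0.02 over all tested probes.

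**Figure D2:**
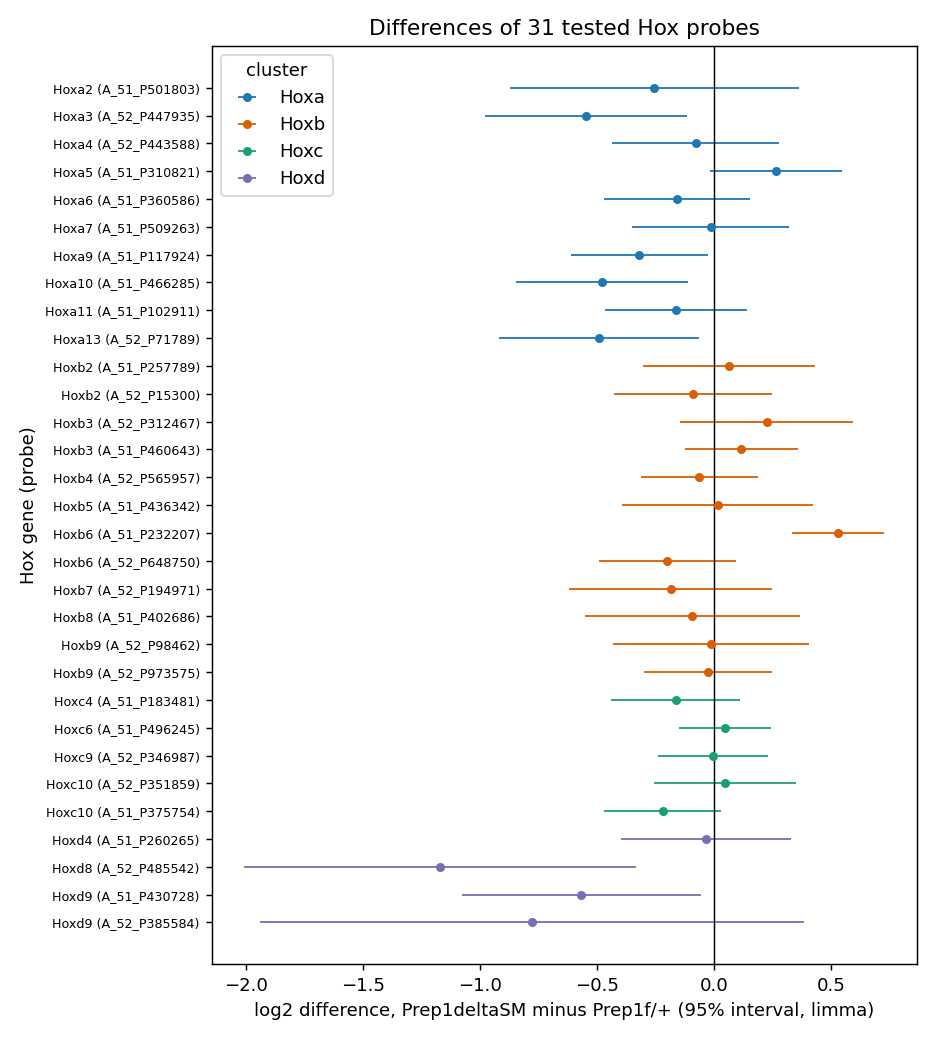
Difference in normalized log2 signal, Prep1deltaSM minus Prep1f/+, for 31 of the 32 detected Hox probes, with 95% confidence intervals by limma (n = 4 mice per genotype), coloured by cluster. The interval of 1 Hoxb6 probe lies above 0 and those of 6 probes of Hoxa3, Hoxa9, Hoxa10, Hoxa13, Hoxd8 and Hoxd9 lie below it, and none of those shown passed after adjustment.

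By cluster, the 11 Hoxa probes had a median difference of -0.16, with 9 below 0 and 4 of these at an unadjusted p under 0.05 (limma). Of all 24487 tested probes, 13259 were below 0, and 8.11% were lower at that p. The 12 Hoxb probes had a median of -0.02, with 5 above 0 and 7 below. The 5 Hoxc probes had a median of -0.01 and the 4 Hoxd probes a median of -0.67, all 4 below 0. By position, the median was 0.06 over 7 probes of paralogs 1 to 3, -0.07 over 14 of paralogs 4 to 8 and -0.22 over 11 of paralogs 9 to 13, of which 10 lay below 0. Neither order was tested, and the probes within a cluster or a paralog group are not replicates.

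Among the anterior genes of Hoxa, Hoxa3, which patterns the pharyngeal arches and the thymus, had the largest size of difference. Its detected probe read -2.19, -2.31, -2.48 and -2.15 in Prep1deltaSM muscles, against -1.61, -1.80, -2.23 and -1.29 in Prep1f/+ muscles. Prep1f/+ replicate 3 lay among the Prep1deltaSM values. The difference was -0.55 ± 0.19 (SE), below 0 on all 4 slides, with an adjusted p of 0.197 by limma. It was -0.26 without Prep1f/+ replicates 1 and 4. Hoxa5, which acts in the neck vertebrae and the lung, read -2.56, -2.29, -2.50 and -2.55 in Prep1deltaSM muscles, against -3.03, -2.70, -2.54 and -2.69 in Prep1f/+ muscles. Its groups overlapped by Prep1f/+ replicate 3, and the difference was 0.26 ± 0.12 (adjusted p of 0.310 by limma), above 0 on all 4 slides and 0.17 without Prep1f/+ replicate 1.

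The other anterior and middle Hoxa genes lay closer to 0. Hoxa2 differed by -0.26 ± 0.27 (SE). Hoxa4 differed by -0.08 ± 0.16, Hoxa6 by -0.16 ± 0.14 and Hoxa7 by -0.02 ± 0.15, with adjusted p from 0.574 to 0.970 by limma for these 4 genes. Their intervals left room for differences of either sign; that of Hoxa7 ran from -0.35 to 0.32.

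The posterior Hoxa genes, whose products pattern the limb from its base to its tip, were lower or level in Prep1deltaSM muscle without passing the test. Hoxa9, a gene of the upper limb segment that is also known from leukaemia, read 1.29, 1.09, 1.19 and 0.76 in Prep1deltaSM muscles, against 1.46, 1.52, 1.35 and 1.27 in Prep1f/+ muscles. Only Prep1deltaSM replicate 1 reached the Prep1f/+ values, and the difference was -0.32 ± 0.13 (SE), with an adjusted p of 0.246 by limma. It was -0.21 without Prep1deltaSM replicate 4, and the Hoxa9 probe covers homeodomain codons. Hoxa10, which patterns the thigh bone and the uterus, read 0.86, 1.03, 1.00 and 0.78 in Prep1deltaSM muscles, against 1.79, 1.10, 1.17 and 1.54 in Prep1f/+ muscles. Every Prep1deltaSM value lay below every Prep1f/+ value, by a gap that was small beside the spread of the Prep1f/+ muscles, which were highest in replicates 1 and 4. The Hoxa10 difference was -0.48 ± 0.16, with a 95% interval of -0.85 to -0.11 and an adjusted p of 0.189 by limma, and it lay below 0 on all 4 slides. Without those 2 Prep1f/+ arrays, which also stood apart on the first principal component, it was -0.21.

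Hoxa11, which acts in the lower limb segment in which the tibialis anterior lies, differed by -0.16 ± 0.13 (SE), with an adjusted p of 0.549 by limma. Hoxa13, the gene of the foot and of the genital tubercle, read -3.50, -2.78, -3.39 and -3.07 in Prep1deltaSM muscles, against -2.67, -2.45, -3.06 and -2.60 in Prep1f/+ muscles. The groups overlapped, and the difference of -0.49 ± 0.19 (adjusted p of 0.229 by limma) lay below 0 on 3 of 4 slides. This is the homeodomain probe that resembles those of Hoxb13 and Hoxd13, neither of which was detected.

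**Figure D3:**
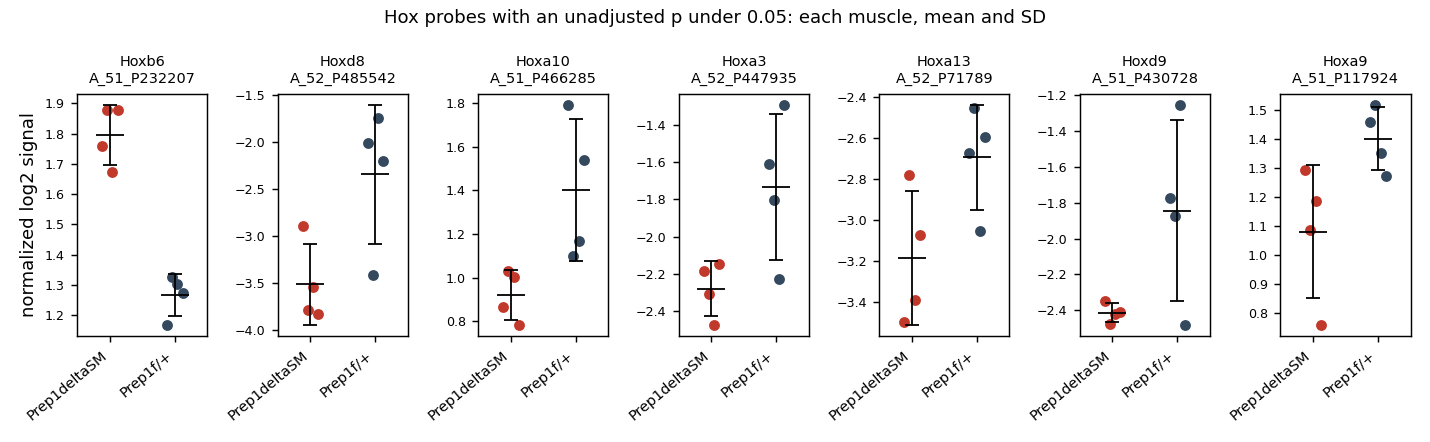
Normalized log2 signal of the 7 Hox probes with an unadjusted p under 0.05, 1 panel per probe with its own vertical axis, in Prep1deltaSM (left) and Prep1f/+ (right) muscles; points are mice, the long bar is the mean and the whiskers are the SD (n = 4). The groups do not overlap for Hoxb6 and Hoxa10 and overlap in the other 5 panels.

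Hoxb6 gave 2 answers from its 2 probes. Hoxb6 is expressed in the trunk and the limb buds of the embryo. The probe A_51_P232207 (chr11:96162563-96162622) read 1.76, 1.88, 1.67 and 1.88 in Prep1deltaSM muscles, against 1.17, 1.33, 1.30 and 1.27 in Prep1f/+ muscles. All 4 Prep1deltaSM values lay above all 4 Prep1f/+ values, by more than the spread within either group. The difference was 0.53 ± 0.09 (SE), 1.44-fold, with a 95% interval of 0.33 to 0.73, an unadjusted p of 0.00022 and an adjusted p of 0.0971 by limma. It was 0.43, 0.58, 0.71 and 0.40 within slides 1 to 4. Over the alternatives that kept it as its own probe, its adjusted p ran from 0.0271 to 0.298, and it passed in 1 of them, normexp background correction followed by quantile normalization (0.48, adjusted p of 0.0271), in which 338 of all probes passed.

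The other Hoxb6 probe, A_52_P648750 (chr11:96160281-96160340), read 0.18, 0.12, 0.21 and 0.17 in Prep1deltaSM muscles, against 0.40, 0.41, 0.03 and 0.64 in Prep1f/+ muscles. The Prep1deltaSM values were close together and lay inside the range of the Prep1f/+ values. The difference was -0.20 ± 0.13 (SE), with a 95% interval of -0.49 to 0.09 and an adjusted p of 0.446 by limma. It was -0.31 without Prep1f/+ replicate 3 and -0.11 without Prep1f/+ replicate 4. Taken within each array, the log2 ratio of the first probe to the second was 1.58, 1.76, 1.47 and 1.70 in Prep1deltaSM muscles, against 0.77, 0.91, 1.27 and 0.64 in Prep1f/+ muscles. The ratio averaged 1.63 ± 0.13 in Prep1deltaSM muscles and 0.90 ± 0.27 in Prep1f/+ muscles (SD, n = 4 each), and the groups did not overlap. This ratio was chosen after the values of both probes were seen, so no p is given, and it does not tell which probe follows the Hoxb6 RNA. The mean of both probes differed by 0.16, with an adjusted p of 0.385. The second probe is named by an Ensembl transcript, and only RefSeq transcripts were looked up. That it matched no RefSeq gene therefore does not place it outside Hoxb6.

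**Figure D4:**
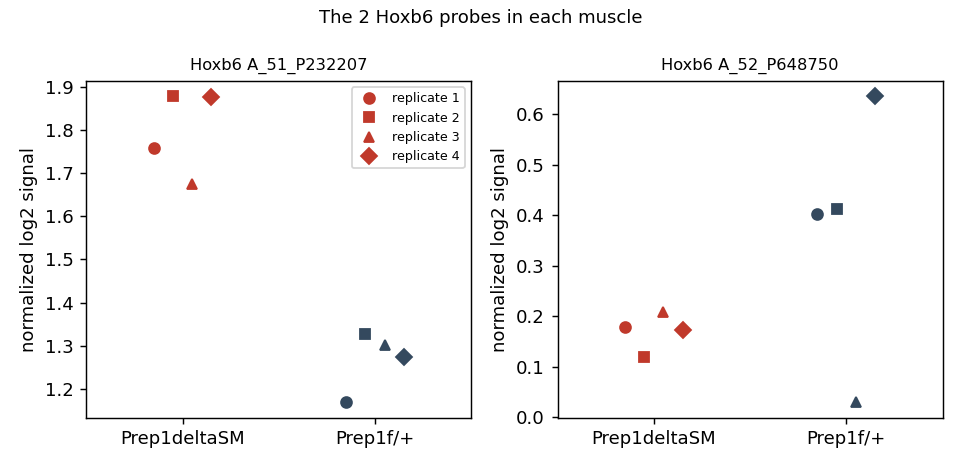
Normalized log2 signal of the 2 Hoxb6 probes in each mouse, Prep1deltaSM (left, red) and Prep1f/+ (right, dark blue), with a marker shape for the replicate number; shapes pair no mice and each panel has its own axis. For A_51_P232207 the 4 Prep1deltaSM muscles lie above all Prep1f/+ muscles, and for A_52_P648750 they lie within the Prep1f/+ range.

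The other genes of the Hoxb cluster showed small differences. Hoxb2, a hindbrain gene, differed by 0.06 ± 0.16 (SE) on the probe of the opposite strand and by -0.09 ± 0.15 on its other probe. Hoxb3, also a hindbrain gene, read -4.58, -3.83, -4.33 and -4.48 on probe A_52_P312467 in Prep1deltaSM muscles, against -4.53, -4.47, -4.65 and -4.47 in Prep1f/+ muscles, which overlapped except for Prep1deltaSM replicates 2 and 3. That probe differed by 0.22 ± 0.16 and the homeodomain probe of Hoxb3 by 0.12 ± 0.11 (adjusted p of 0.501 and 0.601 by limma). Without Prep1deltaSM replicate 2 the first was 0.06. The second was 0.07 without Prep1f/+ replicate 4 and 0.18 without Prep1deltaSM replicate 3. Hoxb4, known for its effect on blood stem cells, differed by -0.06 ± 0.11, Hoxb5 by 0.01 ± 0.18 and Hoxb7 by -0.19 ± 0.19. Hoxb8 differed by -0.09 ± 0.20 on its detected probe. The Hoxb9 probes differed by -0.03 ± 0.12 and -0.02 ± 0.18, and of the 12 Hoxb probes only the first Hoxb6 probe had an interval that left out 0.

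In the Hoxc cluster, Hoxc10 is a hindlimb gene that specifies lumbar motor neurons and is known to stay on in hindlimb tissue of the adult. Its probe A_51_P375754 read 2.06, 2.01, 2.06 and 2.25 in Prep1deltaSM muscles, against 2.29, 2.53, 2.32 and 2.12 in Prep1f/+ muscles. Prep1deltaSM replicate 4 and Prep1f/+ replicate 4 crossed the groups, and the difference was -0.22 ± 0.11 (SE, adjusted p of 0.337 by limma), below 0 on all 4 slides. The second Hoxc10 probe, whose mm9 coordinates run over more bases than the probe holds, read -0.12, -0.18, -0.34 and -0.11 in Prep1deltaSM muscles, against 0.03, -0.20, -0.57 and -0.19 in Prep1f/+ muscles. Its difference of 0.04 ± 0.13 had the opposite sign, as for Hoxb2 and Hoxb6 among the 6 genes with both probes detected, and turned to -0.07 without Prep1f/+ replicate 3.

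The remaining Hoxc genes were close to level. Hoxc9, which represses forelimb-type motor neurons at thoracic levels, averaged 2.74 ± 0.11 in Prep1deltaSM muscles and 2.75 ± 0.14 in Prep1f/+ muscles (SD, n = 4 each), and its difference of -0.01 had a 95% interval of -0.24 to 0.23. Hoxc6, a thoracic gene, averaged 0.93 ± 0.03 in Prep1deltaSM muscles and 0.89 ± 0.12 in Prep1f/+ muscles, with a difference of 0.05 and an interval of -0.15 to 0.24. Hoxc4 differed by -0.17 ± 0.12 (SE).

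The difference of largest size among the Hox probes was that of Hoxd8. Hoxd8, a gene of the trunk, read -2.89, -3.78, -3.54 and -3.83 in Prep1deltaSM muscles, against -2.01, -3.42, -1.74 and -2.20 in Prep1f/+ muscles. Prep1f/+ replicate 2 lay among the Prep1deltaSM values and the other 3 Prep1f/+ muscles above them. The difference was -1.17 ± 0.37 (SE), 2.25-fold lower, with a 95% interval of -2.01 to -0.33 and an adjusted p of 0.174 by limma. It was below 0 on 3 of 4 slides, and 0.53 on slide 1. Without 1 array the difference ran from -1.53 to -0.97, and it was -0.31 with normexp correction and quantile normalization.

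Hoxd9, a gene of the lumbar region and the upper limb segment, had 2 detected probes. The homeodomain probe read -2.35, -2.48, -2.42 and -2.41 in Prep1deltaSM muscles, against -1.78, -1.87, -1.25 and -2.48 in Prep1f/+ muscles. Prep1f/+ replicate 4 lay at the bottom of the Prep1deltaSM range, and the difference was -0.57 ± 0.22 (SE, adjusted p of 0.242 by limma), or -0.37 without Prep1f/+ replicate 3. The second probe read -3.55, -3.83, -3.65 and -4.17 in Prep1deltaSM muscles, against -2.99, -3.41, -1.44 and -4.24 in Prep1f/+ muscles, a difference of -0.78 ± 0.51 (adjusted p of 0.456). That difference was -0.25 without Prep1f/+ replicate 3 and -1.19 without Prep1f/+ replicate 4. Prep1f/+ replicate 3 was the highest and replicate 4 the lowest Prep1f/+ muscle on both probes. Hoxd4, a gene of the neck, differed by -0.04 ± 0.16, and the dim probe of Hoxd10 was above background on 0 Prep1deltaSM arrays and 1 Prep1f/+ array.

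Markers of connective tissue cells were measured beside the Hox probes. Of 24 probes for 12 fibroblast markers, 0 were higher and 5 lower in Prep1deltaSM muscle at an unadjusted p under 0.05 (limma), where 9.66% of all probes were higher and 8.11% lower. Their median difference was -0.30, and 0 passed after adjustment. The mean level of a marker list takes the brightest detected probe of each gene, while its counts and median take all detected probes. For the fibroblast markers it was 2.58, 2.36, 2.99 and 2.06 in Prep1deltaSM muscles, against 2.48, 2.98, 3.01 and 2.94 in Prep1f/+ muscles. For 7 tendon markers it was 1.14, 0.32, 1.32 and -0.05 in Prep1deltaSM muscles, against 1.32, 1.36, 0.88 and 1.43 in Prep1f/+ muscles. Prep1deltaSM replicates 2 and 4 were the lowest muscles on both lists, and the other Prep1deltaSM muscles lay among the Prep1f/+ muscles. All 12 fibroblast and 7 tendon genes were detected. The 8 tendon probes all differed below 0, with a median of -0.48. At an unadjusted p under 0.05 (limma), 0 of them were higher and 1 lower.

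The mean level of the 32 detected Hox probes was -1.43, -1.42, -1.50 and -1.54 in Prep1deltaSM muscles, against -1.24, -1.29, -1.28 and -1.48 in Prep1f/+ muscles. Prep1deltaSM replicate 4, lowest on both marker lists, was also the lowest here, and Prep1f/+ replicate 4 lay among the Prep1deltaSM muscles. With each of the 32 probes centred on its mean over the 8 arrays, their median was -0.01, 0.01, -0.08 and -0.09 in Prep1deltaSM muscles, against 0.10, 0.11, 0.05 and -0.12 in Prep1f/+ muscles, while all tested probes had medians of -0.03 to 0.03. By this median the lowest muscle was Prep1f/+ replicate 4, whose fibroblast level was 2.94, and the next Prep1deltaSM replicate 4. Without Prep1deltaSM replicates 2 and 4, 2 Hox probes were lower at an unadjusted p under 0.05 (limma), where 5.94% of all probes were. In that fit 1 Hox probe was higher, where 6.5% of all probes were, and the Hoxb6 probe A_51_P232207 differed by 0.45. The part of connective tissue in the Hox values was not tested. Among other cell types, 10 probes of macrophage and leukocyte genes had a median difference of -0.45. Of these, 0 were higher and 2 lower at an unadjusted p under 0.05 (limma), where 9.66% of all probes were higher and 8.11% lower. The median was -1.08 for 5 adipocyte probes and 0.94 for 6 erythroid probes, with 0 at that p in either list. The mean adipocyte level was 0.64, -3.41, 0.36 and -2.72 in Prep1deltaSM muscles, against -0.80, 0.68, 0.75 and -1.61 in Prep1f/+ muscles. The groups overlapped there and in the mean erythroid level. For 8 satellite cell probes the median was -0.14, and Myf5 and Lep were on 0 arrays. Probes of endothelial, smooth muscle and Schwann cell genes had medians of 0.03, 0.04 and 0.01. At an unadjusted p under 0.05 (limma), 3 of 12 smooth muscle and pericyte probes were higher and 1 lower. Of 11 endothelial probes, 1 was higher and 0 lower at that p, and of 7 Schwann cell probes 0 were either.

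**Figure D5:**
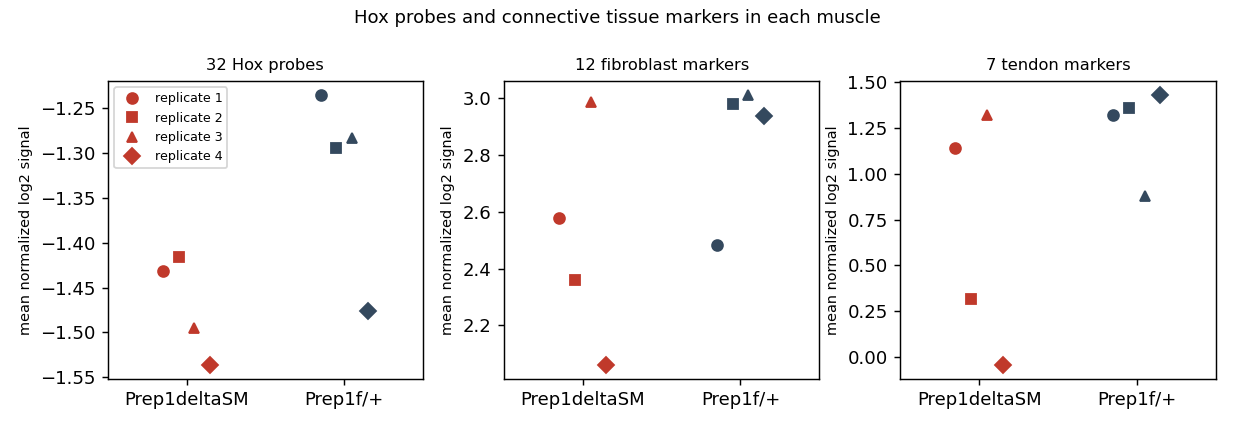
Mean normalized log2 signal of each muscle over 32 Hox probes (left), 12 fibroblast (middle) and 7 tendon markers (right), in Prep1deltaSM (red) and Prep1f/+ (dark blue) muscles; marker shapes give the replicate number and pair no mice. Each marker gene is given by its brightest detected probe. Prep1deltaSM replicate 4 is the lowest muscle in all 3 panels, and Prep1deltaSM replicate 2 is low in both marker panels.

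Promoter sequence was examined because PREP and MEIS proteins are known to bind the letters TGACAG, PBX with PREP the letters TGATTGAC and Hox with PBX letters of the form TGATNNAT. RefSeq promoters of build GRCm38.p6, a short window around the transcription start, were matched for 22 Hox genes, in 24 promoters. TGACAG was in 2 of the 24 (8.33%), of Hoxa2 and Hoxa3, and in 19.18% of all 32851 promoters, counting both strands. TGATTGAC was in 0 of 24 and in 0.77% of all. TGATNNAT was in 4 of 24 (16.67%), of Hoxa2, Hoxb1, Hoxb8 and Hoxd11, and in 8.85% of all. The 2 TGACAG windows are printed, with the motif in capitals, because they are the only such letters in these promoters.
Hoxa2, chr6:52164858-52164887, minus strand, 44 bases before the start: gaagcaatcatgTGACAGccaattcggtcc
Hoxa3, chr6:52213063-52213092, plus strand, 13 bases before the start: cttctgcctctcTGACAGctgtcgcttcgg
The Hoxa2 letters lie on the strand of the gene and those of Hoxa3 on the other strand. A match describes the sequence and is not a site, and the array measured no binding.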

How the data were processed

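Cy3-labelled RNA of 8 tibialis anterior muscles was measured on Agilent arrays. The authors deposited spot intensities from which the scanner software, Feature Extraction 10.5.1.1 with protocol GE1_107_Sep09 per the file headers, had subtracted background and spatial trends within an array. The submitters' processing notes name version 9.1 of the same software, a difference that could not be resolved. A second deposited table held 32812 processed intensities per array. Of these, 26245 differed by at most 0.1 log2 from scanner values after quantile normalization, and only they served as an alternative. By this choice the alternative stays close to quantile normalization, on fewer probes.

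Log2 intensity was scaled to the 75th percentile of each array, spots flagged on an array as non-uniform (0 to 11) or as population outliers (47 to 99) were treated as missing, and repeat spots were averaged. The 24487 probes well above background on 4 arrays or more were fitted with lmFit and eBayes of limma 3.58.1 (R 4.3.3), 1 row per probe, with Benjamini-Hochberg adjustment over all of them. Replicates were numbered in the order of the samples, and p-values measure the spread between mice. The number of arrays limits precision. The fit was tested on simulated data. Of the 50 Hox probes, 45 had accessions of 1 RefSeq gene of the same name (GRCm38.p6), 1 of several and 4 of none. Only RefSeq transcripts were looked up, so a probe listed only under other accessions could not match.

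Values per array are given for Pknox1, for the 12 detected Hox probes of smallest p and for other detected probes of those genes; up to 4 probes of each other list are named. The members and lists were chosen with earlier results of these data known. Alternatives were 1 probe or the mean of probes per gene, quantile normalization, median centring, normexp with an offset of 50 followed by quantile normalization, stricter and no filters, the authors' values, array weights, a robust fit with a trend, slide as a block, retained flagged spots and the removal of each array in turn. Scanning took place on 1 day. Protein sequences were not used here. Values of 1 Hox gene and 1 other listed gene, and 2 probe sequences, are not reported here.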

Additional observations from a re-analysis of the deposited data

How the results depend on the processing

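The labels pair no mice by replicate number; each slide held 1 mouse of each genotype, and the fit with slide as a block is the paired analysis that could be made. Of 32 Hox probes, 1 passed an adjusted p of 0.05 with normexp and quantile normalization (Hoxb6 A_51_P232207, 0.48), and 0 in the other alternatives. The count higher at an unadjusted p under 0.05 was 0 with the mean of probes per gene, 2 with slide as a block, and 1 to 2 without a single array (2 without Prep1f/+ replicate 3). The authors' values that matched the quantile-normalized ones covered 20 of the 32 probes. In them 7.48% of all probes were lower, and the count lower was 2. It was 3 to 9 without a single array, where 5.76% to 8.86% of all probes were lower. Among alternatives chosen after seeing the data, it was 3 without Prep1f/+ replicates 1 and 4 (8.91% of all probes) and 2 without Prep1deltaSM replicates 2 and 4 (5.94% of all probes). The Hox median stayed between -0.15 and -0.03. Pknox1 lost its call with no filter (-1.76, adjusted p of 0.0513), with slide as a block (-1.76, 0.0947), without Prep1f/+ replicates 1 and 4 (-1.78, 0.0543) and without Prep1deltaSM replicates 2 and 4 (-1.78, 0.221); without a single array it ran from -1.84 to -1.68. Hoxc10 A_52_P351859 turned to -0.0002 without Prep1deltaSM replicates 2 and 4, and ran from -0.068 (without Prep1f/+ replicate 3) to 0.129 without a single array. The other 13 named Hox probes kept their direction. Other detection rules and probe choices gave 29 to 40 Hox probes and 25 to 31 genes. In normexp 338 of all probes passed, against 1 in the fit reported, and differences of dim probes were smaller, as for Hoxd8 (-0.31) and Hoxa13 (-0.12), and that of Pknox1 was -0.89. That alternative adds an offset of 50 to every signal, where the 75th percentile of an array's scanner signals was 139 to 197. Why the results differ was not tested. With 1 probe per gene, the brightest, 887 genes were higher and 1658 lower at an unadjusted p under 0.05, against 2365 and 1985 probes. Dim probes near background limit what can be said of Hoxc and Hoxd genes. Over 30 groups of 4 values, 0 had a sample that stood apart by Dixon's test.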

Other observations

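The TALE partners of Hox proteins were measured by 17 detected probes of 8 of the 9 genes listed (Pbx4 was on 0 arrays). Pknox1 was the 1 probe that passed the adjusted test. At an unadjusted p under 0.05, which 9.66% of all tested probes passed as higher and 8.11% as lower, 1 probe was higher and 3, Pknox1 included, were lower, and the median difference was -0.04. Pknox2, which encodes the close relative Prep2, differed by 0.54 ± 0.19 on probe A_52_P637756 (adjusted p of 0.200) and by 0.05 and -0.01 on its other 2.

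Of regulators that keep Hox clusters silent or active, 42 Polycomb probes of 24 genes included 4 higher and 3 lower at an unadjusted p under 0.05, and 18 Trithorax probes of 9 genes included 4 higher and 1 lower, with 0 past the adjusted test in either list. The Polycomb counts were near the shares of all tested probes, 9.66% higher and 8.11% lower. Jarid2, a cofactor of Polycomb repressive complex, differed by 0.50 ± 0.13 (SE, adjusted p of 0.121 by limma) and Suz12, a core subunit, by 0.36 ± 0.10 (0.150). Pcgf1, of a Polycomb repressive complex, differed by -0.38 ± 0.11 (0.166), the histone-binding Rbbp4 by -0.29 ± 0.10 (0.192) and the Trithorax-linked Psip1 by -0.28 ± 0.09 (0.179). The groups did not overlap for these probes of Jarid2, Suz12, Pcgf1, Rbbp4 and Psip1. Of all tested probes, 6.42% were higher and 5.35% lower without overlap. Both Ash1l probes, of a Trithorax methyltransferase, were above all Prep1f/+ muscles in every Prep1deltaSM muscle: A_52_P621271 read 0.11, -0.10, -0.22 and 0.01 in Prep1deltaSM muscles, against -0.65, -0.50, -0.61 and -0.74 in Prep1f/+ muscles (0.58 ± 0.10, adjusted p of 0.0971), and A_52_P593361 differed by 0.32 ± 0.10 (0.166). Of 19 upstream and limb regulators, 11 were detected, with 0 probes higher and 1, of the retinoic acid receptor gene Rara, lower at an unadjusted p under 0.05 (-0.58 ± 0.24, adjusted p of 0.263), or 1 of 16 probes where 8.11% of all were lower. The embryonic Hox activators Cdx1, Cdx2 and Cdx4 were on 0 arrays.

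Between the outermost Hox probes of the clusters lay 9 probes of other transcripts, 5 of them in Hoxa, of which 3 were detected. In Hoxa, 9530018H14Rik differed by -0.30 ± 0.14 (SE, adjusted p of 0.311 by limma), 2700086A05Rik by 0.28 ± 0.21 (0.519) and a probe named only by a transcript number by -0.13 ± 0.16 (0.688). The last of these lies on the strand opposite to the Hoxa genes. The dim 9530018H14Rik probe passed the detection rule on only 4 arrays, 1 of Prep1deltaSM and 3 of Prep1f/+ muscles. Its mean levels were -4.71 in Prep1deltaSM and -4.41 in Prep1f/+ muscles.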
